A study of Mus musculus with 24 samples.

Results

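The 10 genes Olfm4, Ascl2, Smoc2, Sox9, Rgmb, Tnfrsf19, Igfbp4, Aqp4, Cdca7 and Mex3a, which mark crypt base columnar (CBC) stem cells of the mouse small intestine, were followed through 4 sorted cell populations with and without neuregulin 1 (NRG1). They were chosen by name, as the 10 rows with these symbols among the 43280 symbols of the deposited RNA-seq count table, and all 10 were found. The 24 libraries came from 6 male Lgr5-EGFP C57BL/6 mice, 3 given NRG1 and 3 given PBS as vehicle, and each mouse gave 1 library per population. NRG1 was injected into the peritoneum at 7.5 µg every 12 h for 5 days, and tissue was taken on day 6. Replicates 1 and 2 of each treatment were aged 15 weeks and replicate 3 was aged 11 weeks. The labels call the mice littermates, but with these ages the 6 cannot be of 1 litter, and age sets replicate 3 apart in both treatments. All mice, controls included, carried the Lgr5-EGFP reporter that set the sort gates. Epithelial cells released from crypts, after villi had been scraped off, were sorted without CD31+, CD45+ or dead cells. The labels name Lgr5high CD24low cells as CBC stem cells, Lgr5med CD24low and Lgr5low CD24low cells as immediate and later progenitors, and Lgr5neg CD24neg cells as differentiated cells. The animals per gate are few, the gates rest on a reporter of 1 gene, and bulk libraries give an average over every cell in a gate.

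CBC stem cells sit between the Paneth cells at the base of intestinal crypts and renew the epithelium under Wnt and Notch signals. Their daughters move up the crypt, divide as progenitors and turn into absorptive or secretory cells, and stem cell transcripts fade along the way. Ascl2 and Sox9 are transcription factors that respond to Wnt signalling. Olfm4, Smoc2 and Igfbp4 encode secreted proteins. Rgmb, a co-receptor for bone morphogenetic proteins, Tnfrsf19, a receptor of the tumour necrosis factor family, and Aqp4, a water channel, sit at the membrane. Cdca7 is a nuclear protein tied to MYC and E2F activity, and Mex3a binds RNA. NRG1 is a ligand of the receptor tyrosine kinases ERBB3 and ERBB4.

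On GRCm38, the build the submitters' processing notes name, the GENCODE annotation places these genes as follows. Olfm4 lies on the plus strand at chr14:79984081-80023139 and Tnfrsf19 on the minus strand of the same chromosome at chr14:60963875-61046490. Smoc2 at chr17:14279506-14404790 and Rgmb at chr17:15803188-15831039 share another chromosome, as do Sox9 at chr11:112782224-112787760 and Igfbp4 at chr11:99041244-99054392. Ascl2 is at chr7:142966829-142969264 on the minus strand, Cdca7 at chr2:72476159-72486893 and Mex3a at chr3:88532395-88541396.

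Because the 10 transcripts moved together between gates, their promoters were read for short words bound by factors of the crypt. RefSeq promoters (build GRCm38.p6, 250 bases before to 50 after a transcription start) were matched for 7 of the 10 genes, 10 promoters in all, and Smoc2, Sox9 and Aqp4 had no match. The words searched on both strands were CTTTGAT and CTTTGTT for TCF/LEF, TGGGAA for RBPJ, CAGCTG for the E-box and GCGGGAA for E2F. No occurrence overlapped another. The 4 promoters that hold any of them are shown 5′ to 3′ as the 250 bases before the start, with the words in capitals:
Olfm4 (plus strand, chr14:80000052-80000301): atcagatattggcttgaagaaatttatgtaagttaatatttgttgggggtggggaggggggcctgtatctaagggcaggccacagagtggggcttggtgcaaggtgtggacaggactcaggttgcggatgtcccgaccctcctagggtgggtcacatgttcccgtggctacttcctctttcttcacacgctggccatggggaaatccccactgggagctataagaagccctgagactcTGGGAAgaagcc
Tnfrsf19 (minus strand, chr14:61037988-61038237): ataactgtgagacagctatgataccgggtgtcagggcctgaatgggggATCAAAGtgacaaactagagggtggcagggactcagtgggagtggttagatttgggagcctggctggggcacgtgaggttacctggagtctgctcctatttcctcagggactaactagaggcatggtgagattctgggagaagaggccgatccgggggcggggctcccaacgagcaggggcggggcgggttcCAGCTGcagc
Cdca7 (plus strand, chr2:72475969-72476218): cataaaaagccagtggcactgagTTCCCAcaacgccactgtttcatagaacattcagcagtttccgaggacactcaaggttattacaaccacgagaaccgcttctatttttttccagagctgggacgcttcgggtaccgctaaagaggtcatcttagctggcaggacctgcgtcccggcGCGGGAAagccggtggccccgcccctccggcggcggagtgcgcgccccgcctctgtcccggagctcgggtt
Mex3a (plus strand, chr3:88531696-88531945): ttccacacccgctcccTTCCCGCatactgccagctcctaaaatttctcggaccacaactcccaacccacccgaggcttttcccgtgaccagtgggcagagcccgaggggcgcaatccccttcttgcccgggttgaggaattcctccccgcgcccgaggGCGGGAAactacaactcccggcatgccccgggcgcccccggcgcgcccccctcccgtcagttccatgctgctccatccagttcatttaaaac
Positions are those of a word's first base relative to the RefSeq start. In Olfm4 the RBPJ word is at −12. Tnfrsf19 is the only one of the 4 with a TCF/LEF word, at −202, and it also holds an E-box word at −10. Cdca7 has an E2F word at −71 and an RBPJ word at −227, and Mex3a has E2F words at −92 and −234. Ascl2, Igfbp4, the 3 Rgmb promoters and a second Tnfrsf19 promoter held none of the words. The starts used for Olfm4 and Tnfrsf19 lie inside the wider spans that GENCODE gives these genes. Among 32851 promoters of the same length, 9.33% held either TCF/LEF word, 25.6% the RBPJ word, 16.3% the E-box word and 4.6% the E2F word. These are matches of letters, not measured binding sites.

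Library totals ran from 11176264 to 23343499 counts, and 37.6% to 62.4% of these were ribosomal RNA of mitochondria. Levels are given as CPM, counts scaled to a common library size with TMM factors over all 24 libraries. Scaled by raw library totals alone, without TMM factors, 3 counts correspond to 0.129 to 0.268 CPM. This range is therefore not on the scale of the levels. For example, 3 counts of Tnfrsf19 in Lgr5neg PBS replicate 1 were 0.225 CPM with TMM factors, against 0.129 by the raw total. Lgr5, the gene of the gate, stood at 171 ± 61.9 CPM (mean ± SD, n = 3) in Lgr5high, 28.9 ± 20.0 in Lgr5med, 8.39 ± 2.41 in Lgr5low and 1.30 ± 0.286 in Lgr5neg cells of PBS mice. Several libraries were the highest or lowest of their group for most of these genes, a description given without the share of all genes. Lgr5med PBS replicate 1 was the highest of its group for 10 of 10 genes and Lgr5high PBS replicate 2 the lowest for 10 of 10. Lgr5med NRG1 replicate 3 was the lowest of its group for 8 of 10. Lgr5low NRG1 replicate 2 and Lgr5high NRG1 replicate 1 were each the highest of their group for 7 of 10. Lgr5med PBS replicate 2 and Lgr5neg PBS replicate 1 were each the lowest of their group for 7 of 10. Each comparison they enter was repeated without them. Markers of other cells also changed along the gates, and their part in the results was not tested. The summed level of 25 enterocyte markers in PBS mice was 1629 to 2288 CPM in Lgr5high, 3082 to 3659 in Lgr5med, 6867 to 10098 in Lgr5low and 55300 to 91262 in Lgr5neg libraries. For 15 goblet cell markers it was 465 to 2102, 6113 to 16958, 15034 to 27302 and 5152 to 7124 CPM in the same order. Despite the CD45 gate, 15 immune cell markers summed to 63.2 to 427 CPM in Lgr5neg libraries of both treatments, against 6.61 to 86.9 CPM in the others. Endothelial and mesenchymal markers stayed between 2.17 and 16.6 CPM in sum, with Cdh5, Col3a1, Grem1 and Lum at 0 counts in every library.

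All 10 genes were highest in Lgr5high cells and lower at each gate down to Lgr5neg. Within single mice the order held without exception: every gene in every mouse was lower in Lgr5med than in Lgr5high, lower in Lgr5low than in Lgr5med and lower in Lgr5neg than in Lgr5low (30 of 30 gene and mouse pairs for each step and each treatment). These pairs come from 3 mice per treatment and are not independent of each other. The order is a description, given without the share of all genes that show it. In bulk libraries of sorted cells, fewer cells that express a gene and less of its RNA per cell cannot be told apart.

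**Figure D1:**
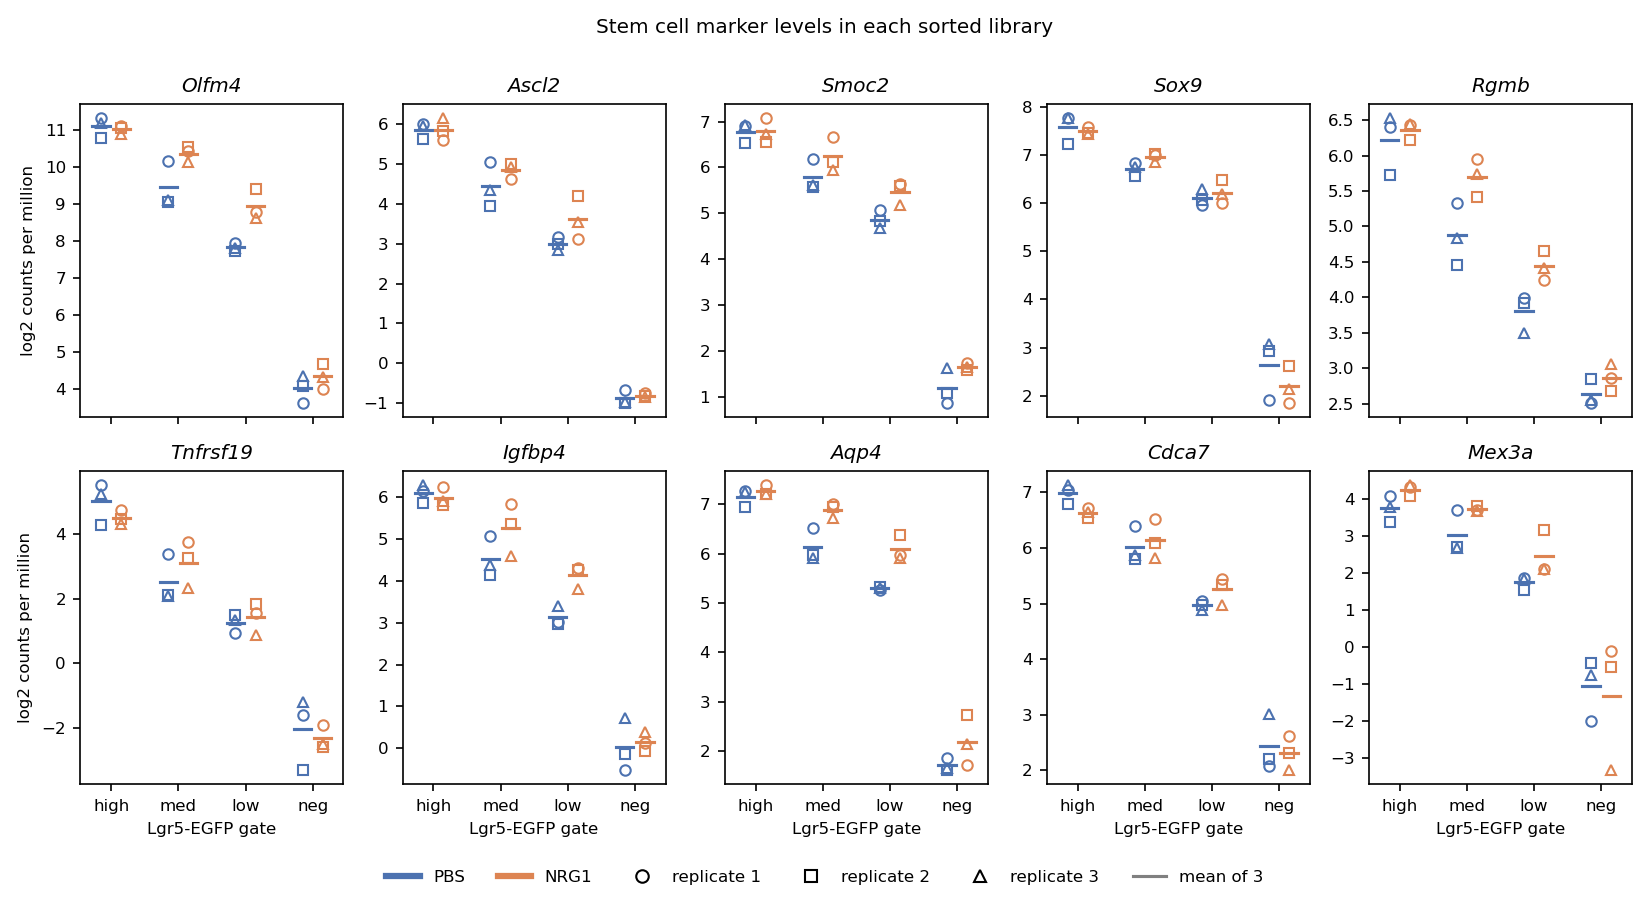
Level of each gene, in log2 CPM (prior count 2), in each of the 24 libraries, by gate along the x axis; blue is PBS, orange is NRG1, the marker shape is the replicate and the bar is the mean of 3. All 10 genes step down from high to neg in both treatments, and the orange points lie above the blue ones most often in the med and low gates.

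Of the transcription factors, Ascl2, a Wnt target that keeps the stem cell programme, was measured in PBS mice at 64.3, 49.4 and 61.8 CPM in Lgr5high libraries (replicates 1 to 3), 33.1, 15.4 and 20.3 in Lgr5med and 8.91, 7.89 and 7.09 in Lgr5low. In Lgr5neg cells it was close to the limit of counting, with 7, 5 and 5 counts. The gates did not overlap. NRG1 mice had 48.8, 57.1 and 71.2 CPM in Lgr5high, 24.8, 32.1 and 30.5 in Lgr5med and 8.66, 18.4 and 11.6 in Lgr5low cells and 6, 7 and 6 counts in Lgr5neg cells, and these ranges met those of PBS mice in every gate. Sox9, which marks the crypt base and is also known from Paneth cells, kept a larger part of its level in Lgr5low cells. Its PBS levels were 216, 149 and 216 CPM in Lgr5high, 114, 94.5 and 107 in Lgr5med, 61.7, 67.2 and 78.7 in Lgr5low and 3.67, 7.48 and 8.31 in Lgr5neg cells. With NRG1 they were 191, 175 and 174 CPM in Lgr5high, 127, 129 and 115 in Lgr5med, 63.7, 88.4 and 72.8 in Lgr5low and 3.53, 6.05 and 4.31 in Lgr5neg cells. Only the Lgr5med libraries of the 2 treatments did not overlap for Sox9. Overlap and separation of libraries, here and below, are descriptions of 3 libraries per group, given without the share of all genes that were separated.

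Of the secreted proteins, Olfm4, a glycoprotein of the crypt base whose gene responds to Notch, had the highest level, also per kilobase of exon. PBS libraries held 2569, 1758 and 2358 CPM in Lgr5high, 1152, 537 and 559 in Lgr5med, 249, 212 and 226 in Lgr5low and 12.4, 16.8 and 20.3 in Lgr5neg cells. Replicate 1 was far above the other two in the Lgr5med gate. NRG1 libraries held 2222, 2119.6 and 1911 CPM in Lgr5high, 1385, 1487 and 1122 in Lgr5med, 444.3, 682 and 394 in Lgr5low and 16.1, 25.8 and 20.0 in Lgr5neg cells, with every Lgr5low NRG1 library above every Lgr5low PBS library. Smoc2, a matrix-associated protein, stood at 119, 91.8 and 121 CPM in Lgr5high, 72.9, 47.8 and 48.7 in Lgr5med, 33.4, 28.2 and 25.5 in Lgr5low and 1.72, 2.01 and 2.96 in Lgr5neg cells of PBS mice. After NRG1 it stood at 135, 94.1 and 106 CPM in Lgr5high, 101, 69.6 and 61.3 in Lgr5med, 49.7, 48.1 and 36.3 in Lgr5low and 3.20, 2.89 and 3.02 in Lgr5neg cells. Its lowest Lgr5low NRG1 library, replicate 3, still exceeded the highest Lgr5low PBS library. Igfbp4, which binds insulin-like growth factors, had 71.5, 58.4 and 77.9 CPM in Lgr5high, 33.4, 17.5 and 20.6 in Lgr5med and 7.99, 7.71 and 10.5 in Lgr5low cells of PBS mice and 8, 10 and 19 counts in Lgr5neg. NRG1 mice had 75.8, 56.2 and 60.2 CPM in Lgr5high, 56.9, 41.0 and 23.9 in Lgr5med and 19.7, 19.3 and 14.0 in Lgr5low cells and 12, 13 and 16 counts in Lgr5neg cells. The Lgr5low libraries were fully separated by treatment for Igfbp4, and those of the other gates overlapped.

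At the membrane, Rgmb kept more of its level outside the EGFP gates than any other member. In PBS mice it was at 84.9, 52.6 and 92.1 CPM in Lgr5high, 40.1, 21.9 and 28.4 in Lgr5med, 15.8, 15.1 and 11.2 in Lgr5low and 5.62, 7.08 and 5.76 in Lgr5neg libraries. In NRG1 mice the values were 86.5, 74.7 and 86.6 CPM in Lgr5high, 61.5, 42.4 and 53.4 in Lgr5med, 18.9, 25.2 and 21.1 in Lgr5low and 7.14, 6.31 and 8.23 in Lgr5neg cells, above all PBS values of the same gate in Lgr5med and in Lgr5low. Tnfrsf19, also highest in Lgr5high cells, kept the smallest share of that level of any member in Lgr5med cells, in 6 of 6 mice. PBS mice gave 45.9, 19.4 and 38.4 CPM in Lgr5high, 10.4, 4.20 and 4.18 in Lgr5med and 1.83, 2.73 and 2.43 in Lgr5low, and 3, 0 and 4 counts in Lgr5neg. NRG1 mice gave 27.1, 22.4 and 19.8 CPM in Lgr5high, 13.5, 9.46 and 4.94 in Lgr5med and 2.83, 3.49 and 1.74 in Lgr5low cells and 2, 1 and 1 counts in Lgr5neg cells, so no level can be set for it in Lgr5neg cells beyond a few reads. The treatments overlapped in each gate. For Aqp4 the PBS values were 155, 123 and 152 CPM in Lgr5high, 92.3, 63.0 and 59.9 in Lgr5med, 38.4, 39.7 and 39.4 in Lgr5low and 3.52, 2.98 and 3.04 in Lgr5neg cells. The NRG1 values were 167, 148 and 148 CPM in Lgr5high, 129, 123 and 106 in Lgr5med, 62.8, 82.6 and 60.2 in Lgr5low and 3.20, 6.51 and 4.31 in Lgr5neg cells. Its Lgr5med and Lgr5low libraries were both fully separated by treatment.

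Among the intracellular proteins, Cdca7 in PBS mice was at 132, 111 and 139 CPM in Lgr5high, 83.8, 55.4 and 58.8 in Lgr5med, 32.9, 31.5 and 29.3 in Lgr5low and 4.12, 4.51 and 7.98 in Lgr5neg cells. In NRG1 mice it was at 105, 93.4 and 99.8 CPM in Lgr5high, 91.5, 67.8 and 56.5 in Lgr5med, 43.4, 40.4 and 31.5 in Lgr5low and 6.08, 4.86 and 3.93 in Lgr5neg cells. It was the only member whose Lgr5high libraries were separated by treatment, with all 3 NRG1 values below the PBS values. That difference did not pass edgeR's test (adjusted p = 0.0823). Mex3a, an RNA-binding protein known from slowly dividing Lgr5-positive cells, was scarcer, at 16.7, 10.3 and 13.6 CPM in Lgr5high, 12.8, 6.32 and 6.30 in Lgr5med and 3.54, 2.78 and 3.45 in Lgr5low of PBS mice. Lgr5neg libraries held 2, 8 and 6 counts. NRG1 mice had 19.9, 16.6 and 20.4 CPM in Lgr5high, 12.9, 13.8 and 12.5 in Lgr5med and 4.21, 8.75 and 4.21 in Lgr5low cells and 10, 9 and 0 counts in Lgr5neg cells. Mex3a was the only member whose Lgr5high and Lgr5med libraries overlapped in PBS mice, through Lgr5high replicate 2 and Lgr5med replicate 1.

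Per kilobase of exon, which allows levels to be set against each other between genes, Olfm4 stood first in Lgr5high cells of PBS mice at 752 ± 142 CPM per kb. Sox9 (46.9 ± 9.41), Cdca7 (39.8 ± 4.58) and Ascl2 (36.1 ± 4.93) came next, in this order in every Lgr5high PBS library. Their SDs are between mice, and the differences between genes were not tested. Aqp4 followed at 23.03 ± 2.84 CPM per kb. Smoc2 (15.9 ± 2.37) and Igfbp4 (15.7 ± 2.25) were level with each other. Rgmb (9.98 ± 2.75) was above Tnfrsf19 (7.30 ± 2.88) in every one of these libraries, and Mex3a was lowest at 2.34 ± 0.555 CPM per kb. Lgr5 itself was at 16.7 ± 6.04 CPM per kb.

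Expressed as a share of the Lgr5high level in the same mouse, Tnfrsf19 kept 18.4% ± 6.48 in Lgr5med cells of PBS mice (n = 3) and 39.0% ± 12.7 with NRG1, and it kept the smallest share of the 10 in 6 of 6 mice. Olfm4 kept 33.0% ± 10.8 and 63.7% ± 5.87, and Aqp4 50.0% ± 10.2 and 77.2% ± 5.60. In Lgr5low cells the share was 10.4% ± 1.40 in PBS and 24.3% ± 6.86 in NRG1 mice for Olfm4, and 36.7% ± 8.31 and 41.9% ± 8.58 for Sox9, which kept the largest share in 4 of 6 mice. Rgmb kept the largest share in Lgr5neg cells in 6 of 6 mice, 8.78% ± 4.06 and 8.74% ± 0.671, where Ascl2 kept 0.765% ± 0.0860 and 0.817% ± 0.187 and Olfm4 0.766% ± 0.252 and 0.997% ± 0.251. These rankings describe the 6 mice and were not tested.

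**Figure D2:**
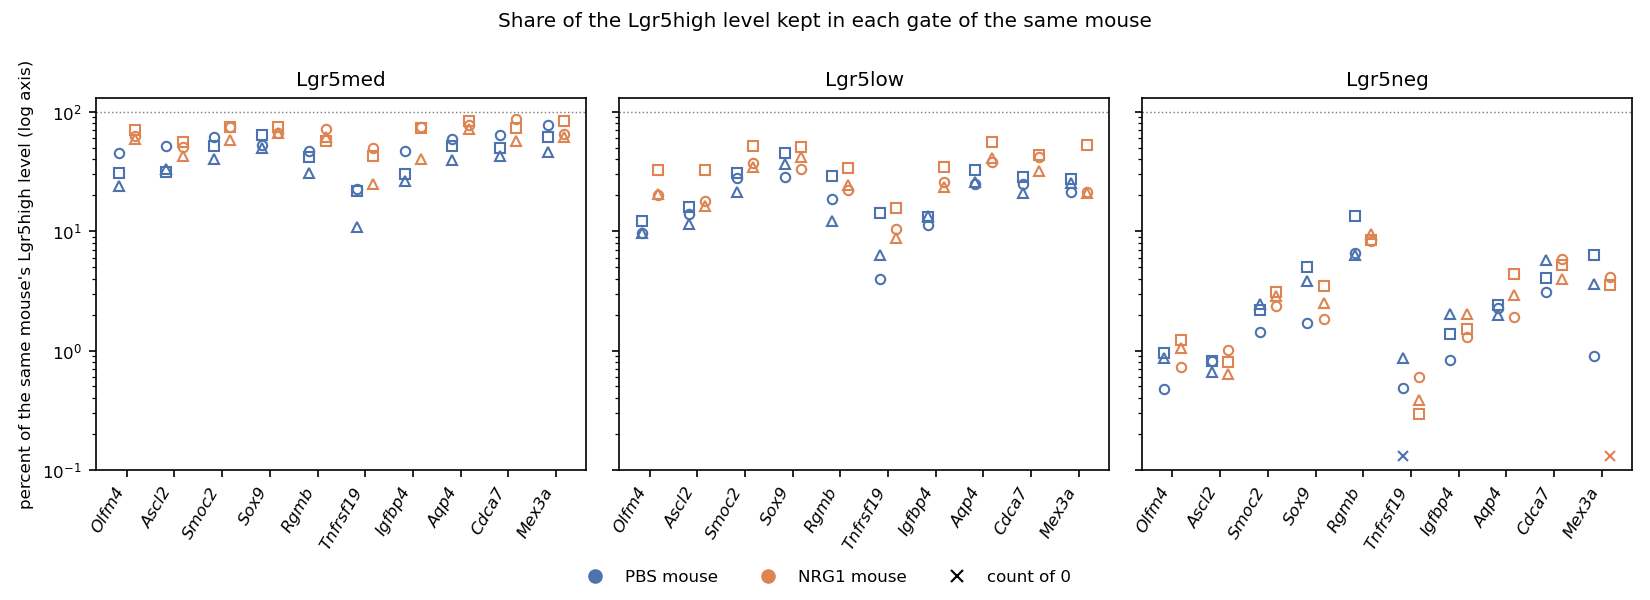
Level of each gene in Lgr5med, Lgr5low and Lgr5neg cells as a percentage of its level in the Lgr5high cells of the same mouse, on a log axis; each point is 1 mouse, circles, squares and triangles are replicates 1, 2 and 3, and a cross is a count of 0. Tnfrsf19 has the smallest share in Lgr5med cells of all 6 mice and Rgmb the largest in Lgr5neg cells of all 6.

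The first step down in PBS mice, from Lgr5high to Lgr5med, lowered 9 of the 10 genes (edgeR quasi-likelihood test over all genes, Benjamini-Hochberg adjusted p under 0.05). Over all 14203 genes tested, 9.17% were called in either direction, and 347 genes were called lower in Lgr5med. The members' median log2 difference was 1.18 and that of all genes 0.00. The members are CBC markers chosen with earlier results of these data known, so their counts at the steps are not independent support. Tnfrsf19 differed most, by 2.47 ± 0.40 (SE, log2, adjusted p = 0.00220). Igfbp4 differed by 1.54 ± 0.23 (SE, log2, adjusted p = 4.49e-04), Ascl2 by 1.35 ± 0.21 (SE, log2, adjusted p = 5.33e-04) and Aqp4 by 1.00 ± 0.15 (SE, log2, adjusted p = 4.47e-04). Sox9 differed by 0.88 ± 0.20 (SE, log2, adjusted p = 0.00970), a call that ended without Lgr5high PBS replicate 1 (0.0525), Lgr5high PBS replicate 3 (0.0519) or Lgr5med PBS replicate 2 (0.0619). Mex3a, the exception, had a log2 difference of 0.68 ± 0.29 (SE, log2, adjusted p = 0.165), which was 1.10 with an adjusted p of 0.0184 without Lgr5med PBS replicate 1.

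From Lgr5med to Lgr5low, 8 of 10 were lower in PBS mice, with a median of 1.23. Of 14203 genes, 7.59% were called in either direction and 284 were called lower in Lgr5low. Olfm4 fell by 1.71 ± 0.27 (SE, log2, adjusted p = 0.00120) and Ascl2 by 1.52 ± 0.22 (SE, log2, adjusted p = 4.43e-04). Sox9 (0.60 ± 0.20 SE, log2, adjusted p = 0.0836) and Tnfrsf19 (1.42 ± 0.43 SE, log2, adjusted p = 0.0694) did not pass, but both did with the mouse as a block, at adjusted p = 0.0420 and 0.0293. The Mex3a difference, 1.37 ± 0.30 (SE, log2, adjusted p = 0.00781), lost its call without Lgr5med PBS replicate 1 (log2 0.95, adjusted p = 0.0861). The last step, Lgr5low to Lgr5neg, lowered 10 of 10. There 55.8% of 14203 genes were called in either direction and 4344 were called lower in Lgr5neg. The members' median was 3.51, with Ascl2 at 4.12 ± 0.35 (SE, log2, adjusted p = 1.57e-08) and Rgmb, the smallest, at 1.18 ± 0.25 (SE, log2, adjusted p = 7.31e-04).

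In NRG1 mice fewer members passed at the first step, and the test of that difference, given further on, called none of them. The 3 of 10 members Ascl2 (0.99 ± 0.21 SE, log2, adjusted p = 0.0154), Rgmb (0.63 ± 0.15 SE, log2, adjusted p = 0.0313) and Tnfrsf19 (1.29 ± 0.29 SE, log2, adjusted p = 0.0199) were lower in Lgr5med than in Lgr5high. Of 14307 genes, 3.11% were called in either direction and 85 were called lower in Lgr5med. The median was 0.57 for the members and −0.02 for all genes. With the mouse as a block, 8 of 10 passed and 913 genes in all, over 1.5 times as many; Olfm4 (0.0137), Smoc2 (0.0146), Sox9 (0.0178), Igfbp4 (0.0161) and Cdca7 (0.0231) joined at these adjusted p values, while Aqp4 (0.170) and Mex3a (0.373) did not. The 3 calls rested on single libraries. Without Lgr5high NRG1 replicate 1, Rgmb and Tnfrsf19 were at adjusted p = 0.158 and 0.118. Without Lgr5high NRG1 replicate 3, Ascl2, Rgmb and Tnfrsf19 were at 0.0957, 0.136 and 0.0504. Without Lgr5med NRG1 replicate 2, Rgmb and Tnfrsf19 were at 0.162 and 0.0800, and without Lgr5med NRG1 replicate 3 the 3 genes were at 0.0633, 0.105 and 0.0766. Leaving out Lgr5med NRG1 replicate 1 instead added Smoc2 (0.0243) and Igfbp4 (0.0212).

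The second step in NRG1 mice, Lgr5med to Lgr5low, lowered 9 of 10 members, with a median of 1.15. Of 14307 genes, 4.72% were called in either direction and 132 were called lower in Lgr5low. Tnfrsf19 fell by 1.75 ± 0.32 (SE, log2, adjusted p = 0.00526), Olfm4 by 1.38 ± 0.21 (SE, log2, adjusted p = 0.00157) and Rgmb by 1.26 ± 0.16 (SE, log2, adjusted p = 7.74e-04). Mex3a (1.15 ± 0.33 SE, log2, adjusted p = 0.0646) passed with the mouse as a block (adjusted p = 0.0388) and without Lgr5low NRG1 replicate 2 (0.0111). In all, 5 of the calls ended without Lgr5med NRG1 replicate 1, with adjusted p of 0.127 for Smoc2, 0.0566 for Sox9, 0.0532 for Igfbp4, 0.0717 for Aqp4 and 0.0532 for Cdca7. The same 5 ended without Lgr5low NRG1 replicate 3, at 0.118, 0.0700, 0.0711, 0.0929 and 0.0546. Sox9 and Aqp4 also ended without Lgr5low NRG1 replicate 1 (both 0.0685) and without Lgr5med NRG1 replicate 2 (0.0576 and 0.0601). At the step to Lgr5neg all 10 were lower, with a median of 3.92. There 57% of 14307 genes were called in either direction and 4354 were called lower in Lgr5neg. Ascl2 fell by 4.76 ± 0.34 (SE, log2, adjusted p = 5.15e-09) and Rgmb by 1.57 ± 0.17 (SE, log2, adjusted p = 7.09e-07).

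**Figure D3:**
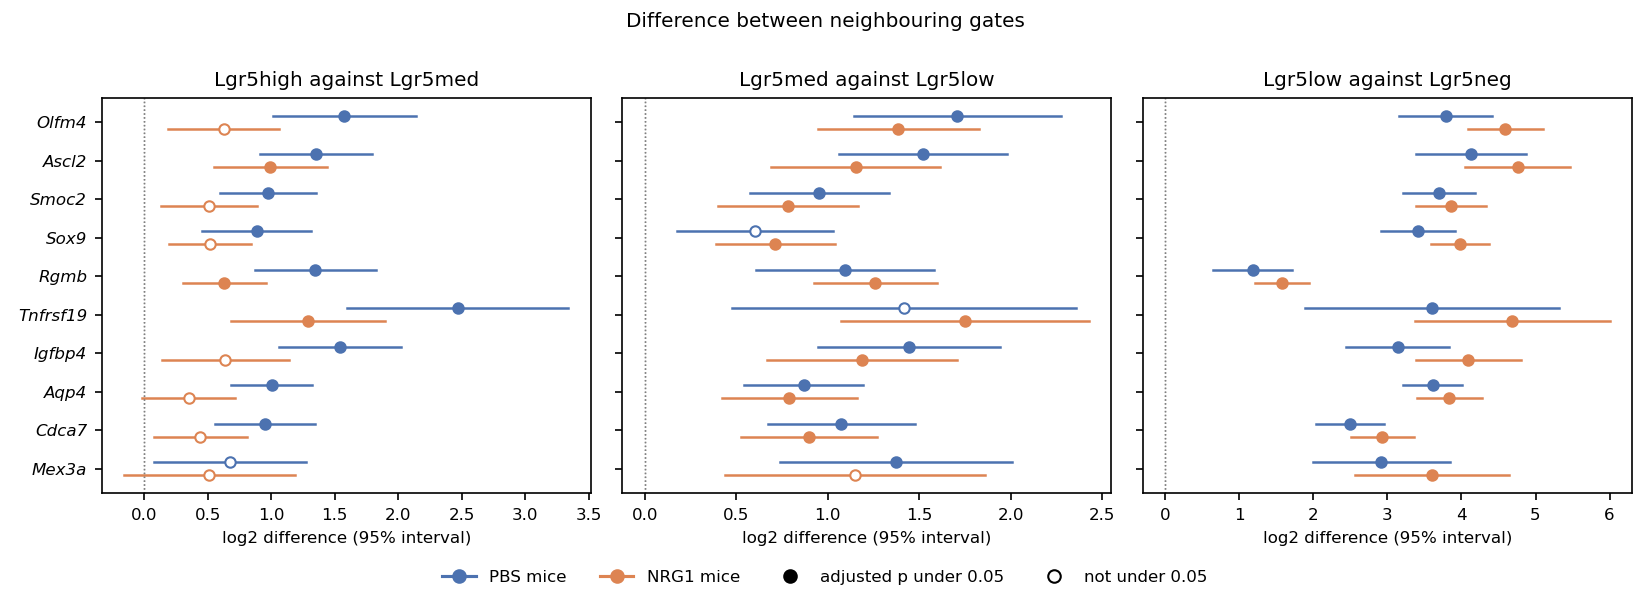
Log2 difference between neighbouring gates for each gene, upper gate minus lower gate, with its 95% interval; blue is PBS mice, orange is NRG1 mice, and filled points passed the adjusted p threshold of 0.05. In the first step 9 of 10 blue points and 3 of 10 orange points are filled, and in the last step all are.

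For NRG1 against PBS, none of the members was called in the Lgr5high gate, and single members were called higher in the 2 progenitor gates. These counts do not show a difference between gates: the direct test of that, given further on, called none of the members. Within Lgr5high cells 0 of 10 passed in edgeR's test against 7.33% of 13322 genes; 2 had an unadjusted p under 0.05, and DESeq2 called 1, Cdca7. The members' log2 differences, NRG1 minus PBS, ran from −0.57 to 0.50 with a median of −0.03. Olfm4 was at −0.08 ± 0.15 (SE, log2, adjusted p = 0.797) and Ascl2 at 0.03 ± 0.14 (SE, log2, adjusted p = 0.940), with intervals from −0.40 to 0.24 and from −0.28 to 0.33. Cdca7 was at −0.35 ± 0.12 (SE, log2, adjusted p = 0.0823) and Mex3a at 0.50 ± 0.17 (SE, log2, adjusted p = 0.0880). Without Lgr5high PBS replicate 2, the library lowest for all members, Tnfrsf19 was at −0.86 (adjusted p = 0.00675) and Cdca7 at −0.44 (0.0474). Without Lgr5high PBS replicate 1, Mex3a was at 0.67 (0.0378). In the same gate 24 of 25 G2/M genes rose and 14 of 24 S phase genes tested fell, and 4 of 14 Paneth cell markers tested fell; their part in the members' values was not tested.

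In Lgr5med cells 2 of 10 rose with NRG1. Of 13394 genes, 9.55% were called in either direction and 504 were called higher. Aqp4 rose by 0.75 ± 0.16 (SE, log2, adjusted p = 0.0117) and Rgmb by 0.82 ± 0.22 (SE, log2, adjusted p = 0.0420). All 10 estimates were above 0, with a median of 0.62 against 0.01 for all genes; that of Cdca7 was at −0.07 without Lgr5med NRG1 replicate 1. Olfm4 (0.85 ± 0.29 SE, log2, adjusted p = 0.10) and Mex3a (0.65 ± 0.25 SE, log2, adjusted p = 0.126) did not pass. Lgr5med PBS replicate 1, the library highest for all 10 members, bore on this count: without it 6 passed, with Olfm4 at 1.30 (adjusted p = 0.00122), Ascl2 at 0.73 (0.0248), Smoc2 at 0.70 (0.0444) and Mex3a at 1.07 (0.00601). In the other direction, both calls ended without Lgr5med PBS replicate 2 (Rgmb 0.0945, Aqp4 0.0692) or Lgr5med PBS replicate 3 (0.142 and 0.0728). Rgmb also ended without Lgr5med NRG1 replicate 1 (0.0985) or 3 (0.173), and Aqp4 without Lgr5med NRG1 replicate 2 (0.0532). With age as a term in the model, an alternative added after the data were seen, 2 members also passed, Aqp4 (adjusted p = 0.00224) and Olfm4 (0.0363), while Rgmb was at 0.0739. Lgr5 in this gate was at 0.93 ± 0.58 (SE, log2, adjusted p = 0.398), and at 1.66 (0.00983) without Lgr5med PBS replicate 1. With replicate number as a block 7 members passed, and Lgr5 as well, with values under the processing alternatives. Enterocyte markers summed to 3082 to 3659 CPM in the Lgr5med PBS and 1786 to 2564 CPM in the Lgr5med NRG1 libraries, with 7 of 25 lower in NRG1 mice; 11 of 25 G2/M genes were higher and 8 of 24 S phase genes lower, and the part of these cells in the members' values was not tested.

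In Lgr5low cells 3 of 10 rose. Of 13326 genes, 0.443% were called in either direction and 19 were called higher. Olfm4 rose by 1.16 ± 0.20 (SE, log2, adjusted p = 0.0369), a 2.23-fold change, Igfbp4 by 1.03 ± 0.20 (SE, log2, adjusted p = 0.0445) and Aqp4 by 0.82 ± 0.15 (SE, log2, adjusted p = 0.0369). All 10 estimates were again above 0, with a median of 0.68 against 0.00 for all genes, and Sox9 was the smallest at 0.13 ± 0.15 (SE, log2, adjusted p = 0.767). Without Lgr5low NRG1 replicate 2, Sox9 and Tnfrsf19 were at −0.01 and −0.02. With replicate number as a block, a pairing that the labels do not state, 5 passed, and 573 genes in place of 59. Smoc2 was then at adjusted p = 0.0109 and Rgmb at 0.0376. The 3 calls depended on single libraries. Without Lgr5low NRG1 replicate 2, the highest of its group for 7 members, Olfm4, Igfbp4 and Aqp4 had adjusted p of 0.276, 0.309 and 0.276, and log2 differences of 0.88, 0.95 and 0.65. Without Lgr5low PBS replicate 1 the adjusted p values were 0.110, 0.139 and 0.120, without PBS replicate 2 0.119, 0.167 and 0.121, and without PBS replicate 3 0.0669, 0.0538 and 0.0669. Igfbp4 was at 0.0771 without Lgr5low NRG1 replicate 1. Lgr5, the gene of the gate, was at 0.68 ± 0.35 here (SE, log2, adjusted p = 0.431). It stood at 5.79, 8.83 and 10.5 CPM in the PBS and 9.23, 21.2 and 9.01 CPM in the NRG1 libraries. The part of this Lgr5 difference in the members' values was not tested. Enterocyte markers summed to 6867 to 10098 CPM in the PBS and 4136 to 8008 CPM in the NRG1 libraries of this gate, with 0 of 25 called, and their part was not tested.

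In Lgr5neg cells 7 of the 10 had enough counts to be tested and 0 passed in edgeR's test, where 0.328% of 11908 genes were called; 0 had an unadjusted p under 0.05 and DESeq2 called 0. Ascl2, Tnfrsf19 and Mex3a did not pass the filter on low counts. The 7 log2 differences ran from −0.48 for Sox9 to 0.57 for Aqp4. Blocking on replicate number, again a pairing that the labels do not state, called 839 genes in place of 39 and 0 of the 7.

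**Figure D4:**
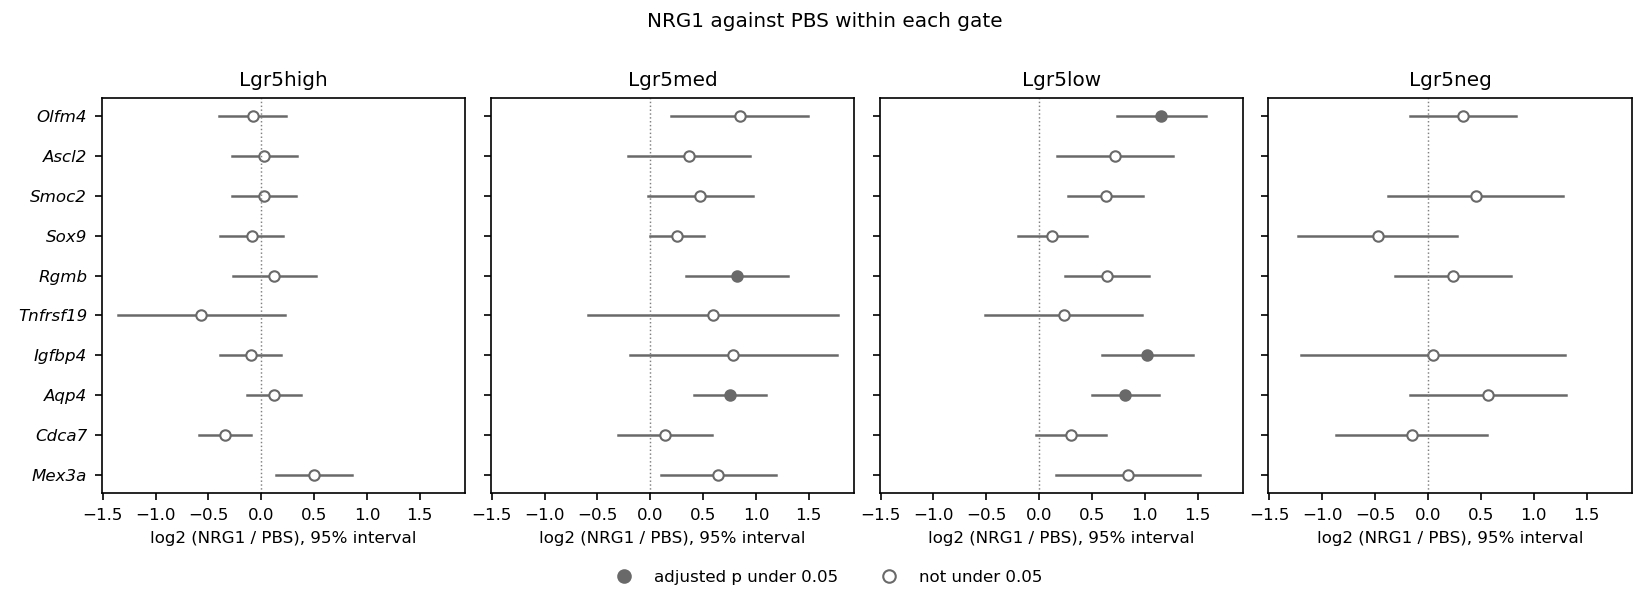
Log2 difference between NRG1 and PBS mice for each gene within each gate, with its 95% interval; filled points passed the adjusted p threshold of 0.05. The filled points are Rgmb and Aqp4 in Lgr5med and Olfm4, Igfbp4 and Aqp4 in Lgr5low cells, and 3 genes are missing from Lgr5neg, where they were not tested.

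Whether the NRG1 response differed between neighbouring gates was tested directly, over all 24 libraries. None of the 10 members passed in any of the 3 tests in edgeR or in DESeq2. Between Lgr5high and Lgr5med 0 of 15045 genes passed, a share of 0%, although 5 members had an unadjusted p under 0.05 and all 10 estimates lay below 0, though that of Mex3a was 0.0325 to 0.0383 without Lgr5high PBS replicate 1, Lgr5med PBS replicate 2 or Lgr5med PBS replicate 3. The Lgr5high and Lgr5med libraries are those of the first step and of the NRG1 comparisons above. For Olfm4 the response in Lgr5high minus that in Lgr5med was −0.93 ± 0.35 (SE, log2, adjusted p = 1.00), with an interval from −1.65 to −0.20, and for Aqp4 −0.63 ± 0.24 (SE, log2, adjusted p = 1.00), from −1.12 to −0.14. Between Lgr5med and Lgr5low 0% of genes passed as well, with 0 members at an unadjusted p under 0.05. Between Lgr5low and Lgr5neg 3 genes passed, 0.0199%, and Olfm4, at 0.82 ± 0.37 (SE, log2, adjusted p = 0.809), was the 1 member with an unadjusted p under 0.05. A difference in the members' response between gates was therefore not shown.

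Another 39 genes of the CBC signature were read beside the members. They were listed from general knowledge, but with earlier results of these data known, so their counts are not independent support. From Lgr5high to Lgr5med in PBS mice 33 of 39 were lower and 0 higher, with a median log2 difference of 1.08 against 0.00 for all genes; Sp5, a Wnt target, fell by 1.81 ± 0.34 (SE, log2, adjusted p = 0.00188). From Lgr5med to Lgr5low 23 were lower and 0 higher (median 0.88), led by Fstl1, a secreted glycoprotein, at 2.81 ± 0.52 (SE, log2, adjusted p = 0.00608), and Msi1, an RNA-binding protein of stem cells, at 1.76 ± 0.31 (SE, log2, adjusted p = 0.00384). From Lgr5low to Lgr5neg 30 were lower and 4 higher (median 2.06 against 0.11 for all genes), and Cd44, a hyaluronan receptor and Wnt target, fell by 4.20 ± 0.26 (SE, log2, adjusted p = 6.70e-10). In NRG1 mice the counts were 12, 21 and 34 lower, and 0, 0 and 4 higher, with medians of 0.64, 0.90 and 2.76. With the mouse as a block 22 of 39 were lower at the first NRG1 step in place of 12, and DESeq2 gave 20. Leaving out 1 library at a time moved the PBS counts to between 18 and 36 for the first step and 14 and 23 for the second, and the first 2 NRG1 counts to between 0 and 9 and between 11 and 25.

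Prelp, a proteoglycan of the extracellular matrix, was the list's member that rose with NRG1 in all 3 EGFP-positive gates. It rose by 0.71 ± 0.13 (SE, log2, adjusted p = 0.00412) in Lgr5high, from 207 ± 31.1 to 335 ± 31.1 CPM (mean ± SD, n = 3), by 0.96 ± 0.19 (SE, log2, adjusted p = 0.0121) in Lgr5med and by 1.28 ± 0.15 (SE, log2, adjusted p = 0.00645) in Lgr5low. The Lgr5med call ended without Lgr5med PBS replicate 3 (adjusted p = 0.0608), and the Lgr5low call without Lgr5low PBS replicate 2 (0.0597) or Lgr5low NRG1 replicate 2 (0.0679). In Lgr5high cells Nr2e3, a nuclear receptor, was the 1 gene of the list that fell, with a log2 difference of −1.02 ± 0.19 (SE, log2, adjusted p = 0.00409). In Lgr5med cells 7 of 39 rose and 0 fell (median 0.47), a count of 21 without Lgr5med PBS replicate 1 and of 3 to 9 without each other library; DESeq2 gave 14 of 38 and age as a term 12 of 39. In Lgr5low cells 3 of the 38 tested rose (median 0.39), among them Cd44 at 0.92 ± 0.16 (SE, log2, adjusted p = 0.0369), which ended without Lgr5low PBS replicate 1 (0.110), 2 (0.130) or 3 (0.0599) or NRG1 replicate 2 (0.276). In that gate 8 rose with replicate number as a block or in DESeq2, and 0 to 3 with 1 library left out. In Lgr5neg cells Axin2, a feedback inhibitor of Wnt signalling, fell, with a log2 difference of −1.40 ± 0.16 (SE, log2, adjusted p = 0.00988), from 42.5 ± 3.49 to 16.0 ± 1.79 CPM. That call ended without Lgr5neg PBS replicate 1 (0.0820) or 3 (0.0595). Its response also differed between Lgr5low and Lgr5neg cells, by 1.73 ± 0.24 (SE, log2, adjusted p = 7.71e-04), and that call held with each of the 12 Lgr5low and Lgr5neg libraries left out in turn. With replicate number as a block, 3 genes of the list rose and 3 fell in Lgr5neg cells. The 5 markers of reserve stem cells, Bmi1, Hopx, Tert, Clu and Lrig1, gave 1, 2 and 3 lower of 4 tested at the PBS steps and 0 called of 4 or 5 tested in any gate for NRG1. Lrig1 is also in the list of other CBC genes. With 1 library left out, the PBS counts ran from 0 to 2, 0 to 2 and 2 to 4 lower, with 0 to 1 higher at the last step. For NRG1 in Lgr5med cells 0 to 1 then rose.

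Over the 24 libraries the pattern nearest to each member was sought among 8834 genes, by the root mean square (RMS) difference between mean-centred log2 CPM. This is a description, since the libraries share mice and gates. Olfm4 and Ascl2 were each other's nearest gene, at an RMS difference of 0.333, with Cd44 second for both (0.341 and 0.366). Smoc2 was nearest to Mcc (0.250) and Aqp4 to Nap1l1 (0.228), the closest match of any member. Tnfrsf19 had no close match and was nearest to Lgr5 itself (0.598). Sox9 was nearest to Zfhx3 (0.254) and then Myc (0.314), Rgmb to Arid5b (0.369), Igfbp4 to Smoc2 (0.380), Cdca7 to Ptprs (0.322) and Mex3a to Cttnbp2 (0.399). Among the members themselves, Smoc2 and Aqp4 were the closest pair (0.272) and Olfm4 and Rgmb the most distant (1.39).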

How the data were processed

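RNA of 24 sorted populations was sequenced, and the authors deposited 1 table of read counts per gene symbol. Reads were aligned with STAR to GRCm38 and counted with featureCounts, per the submitters' processing notes; versions, annotation and strand setting are not given in the sources used here. Counts were used as deposited, and 16628 of 43280 symbols were 0 in every library. Genes past edgeR's filterByExpr (minimum count 10, minimum total 15) were fitted with TMM factors and the robust quasi-likelihood test of edgeR 4.0.16 (R 4.3.3), with Benjamini-Hochberg adjustment over all genes tested and a threshold of 0.05. The 3 steps between neighbouring gates were fitted in 1 model per treatment, NRG1 against PBS within each gate over 6 libraries, and the difference in response over all 24. SEs are the log2 difference over the square root of the F statistic, and 95% intervals use the test's t quantile. The test procedure was tested on simulated data. DESeq2 1.42.0, other scaling, no filter, the mitochondrial ribosomal RNAs left out, the 15-week-old mice alone, a replicate block, all libraries in 1 model and each library left out were alternatives; age as a term in the NRG1 comparisons was added after the data were seen.

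The labels tie the 4 populations of a mouse together, so the mouse was the block for steps in the alternative fit with a block. The main fits of the steps had no block, so their SEs and p values do not use this pairing. Deviations from the group means correlated at a median of 0.108 over 36 pairs of libraries of 1 mouse, 21 of them over 0.1. Replicate numbers were taken as pairing NRG1 with PBS libraries where every same-numbered correlation exceeded 0.1. This held in Lgr5low (0.131 to 0.173) and Lgr5neg (0.102 to 0.180) and not in Lgr5high (0.070 to 0.227) or Lgr5med (0.070 to 0.207). Over all gates the same-numbered pairs had a median of 0.161, with 9 of 12 over 0.1. Pairs of other numbers in the same gate ran from −0.183 to 0.070, with a median of −0.074 and 0 of 24 over 0.1. The labels state no such pairing. All gates come from the same 6 mice, so a cutoff per gate cannot decide whether the mice were paired.

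The 10 genes and all gene lists were chosen with earlier results of these data known. Named genes are the 10, Lgr5, up to 3 called genes of the other CBC list with the largest log2 difference per comparison, and the 2 genes nearest in pattern to each member. Mice are the replicates, aged 15, 15 and 11 weeks in each group, and 3 per group limit the precision; limits at 3 counts cover counting error only.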

Additional observations from a re-analysis of the deposited data

How the results depend on the processing

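Every member called for a step or for NRG1 kept its direction under each alternative, and all 43 changes of sign were in values that had not passed. Members called and genes called moved as follows where they left a band of 1.5 times. With the 15-week-old mice alone, 2 per group, Lgr5high against Lgr5med gave 99 genes and 1 member in PBS and 68 genes and 0 members in NRG1 mice, Lgr5med against Lgr5low gave 307 genes in PBS and 91 genes and 5 members in NRG1 mice, and NRG1 against PBS gave 425 genes and 1 member in Lgr5med, 11 genes and 0 members in Lgr5low and 0 genes in Lgr5neg cells; fewer samples entered these fits. Without a filter on low counts, the 2 upper NRG1 steps gave 1059 genes with 7 members and 1268 genes, NRG1 against PBS gave 2 members in Lgr5high, 5 in Lgr5med, 497 genes with 5 members in Lgr5low and 272 genes in Lgr5neg, and the 3 tests of response gave 17, 5 and 94 genes. DESeq2 gave 785 genes with 5 members and 1106 genes at the 2 upper NRG1 steps, 1 member for NRG1 in Lgr5high, 293 genes in Lgr5low, 187 in Lgr5neg and 6 for the response of Lgr5low against Lgr5neg. The replicate block gave 913 genes with 8 members and 1266 genes at the 2 upper NRG1 steps, 573 genes with 5 members for NRG1 in Lgr5low and 839 genes in Lgr5neg. In Lgr5high and Lgr5med, where not every same-numbered correlation exceeded 0.1, the block gave 1 member (Mex3a, 0.52, adjusted p = 0.0355) and 2333 genes with 7 members. In Lgr5med the block put Lgr5 at 1.07 (adjusted p = 2.05e-05), Olfm4 at 0.93 (0.00184), Igfbp4 at 0.76 (0.00140) and Smoc2 at 0.47 (0.00540), and 22 of the 39 other signature genes in place of 7 rose. Age as a term, which ties replicate 3 across treatments, gave 136 genes in Lgr5low; its other counts of genes and members called stayed within 1.5 times. With all 24 libraries in 1 model, Lgr5high against Lgr5med in NRG1 mice had 1 member, and NRG1 against PBS gave 480 genes in Lgr5high, 129 in Lgr5low and 306 in Lgr5neg. The cause of these shifts was not tested.

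With 1 library left out, genes called ranged from 634 to 1425, 464 to 1004 and 7183 to 7725 for the PBS steps (8 to 10, 7 to 8 and 10 members), from 126 to 487, 204 to 738 and 7204 to 7821 for the NRG1 steps (0 to 5, 4 to 10 and 10 members), and from 491 to 1186, 422 to 1118, 1 to 72 and 0 to 90 for NRG1 in the gates from Lgr5high to Lgr5neg (0 to 2, 0 to 6, 0 to 3 and 0 members). For the tests of response the range was 0, 0 and 3 to 8 genes and 0 members. Log2 differences that changed sign with a library left out ran, over the libraries, Olfm4 from −0.23 to 0.0269, Ascl2 from −0.15 to 0.15, Smoc2 from −0.13 to 0.13, Rgmb from −0.0894 to 0.27 and Lgr5 from −0.20 to 0.31 for NRG1 against PBS in Lgr5high cells; Cdca7 from −0.0669 to 0.35 for NRG1 against PBS in Lgr5med cells; Sox9 from −0.0148 to 0.23 and Tnfrsf19 from −0.0241 to 0.46 for NRG1 against PBS in Lgr5low cells; Igfbp4 from −0.22 to 0.52 and Cdca7 from −0.34 to 0.20 for NRG1 against PBS in Lgr5neg cells. The others ran Mex3a from −0.56 to 0.0383 for the NRG1 response of Lgr5high against Lgr5med; Olfm4 from −0.51 to 0.13, Smoc2 from −0.41 to 0.0597, Rgmb from −0.0176 to 0.43, Tnfrsf19 from −0.0238 to 0.91, Igfbp4 from −0.57 to 0.0756, Aqp4 from −0.19 to 0.15, Cdca7 from −0.38 to 0.0363, Mex3a from −0.40 to 0.26 and Lgr5 from −0.10 to 0.96 for the NRG1 response of Lgr5med against Lgr5low; Smoc2 from −0.0779 to 0.33 and Lgr5 from −0.0200 to 0.75 for the NRG1 response of Lgr5low against Lgr5neg. For NRG1 in Lgr5high cells the 15-week-old mice gave Olfm4 0.00119, Ascl2 −0.10, Sox9 0.00188 and Igfbp4 0.0201, and the unfiltered fit gave Ascl2 −0.00792 and Smoc2 −0.00905. The 15-week-old mice also gave Cdca7 0.35 for NRG1 in Lgr5neg, Lgr5 −0.27 for the response of Lgr5med against Lgr5low and Smoc2 −0.0411 for that of Lgr5low against Lgr5neg. Depth limited Ascl2, Tnfrsf19 and Mex3a in Lgr5neg cells, where they had 10 counts or fewer per library.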
